A study of Mus musculus with 6 samples.

Results

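Transcript levels of 39 genes that mark microglia, the resident immune cells of the brain, were followed in the prefrontal cortex (PFC) of wild-type (WT) mice and of P301S Tau mice with or without the histone methyltransferase inhibitor UNC0642. The members were taken by symbol from a list of microglia genes that was chosen with earlier results of these data known. All 39 were found among the 54429 gene rows of each count file. They comprised 16 homeostatic genes, which are characteristic of resting microglia, and 23 disease-associated genes, which are known to be raised in microglia around plaques, dying neurons and other lesions. Of these, 37 members passed the filter on low counts, including all 16 homeostatic genes and 21 of the 23 disease-associated genes. Ccl3 and Ccl4, genes for inflammatory chemokines, did not pass.

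Total RNA depleted of ribosomal RNA was sequenced from the PFC of 3 groups of mice aged 6 months, with 2 libraries per group from separate animals. The WT group had the genotype label C57BL/6 x C3H and received vehicle, which was saline with DMSO. The Tau group carried PS19(P301S), a transgene for mutant human tau under the mouse prion promoter on a B6C3H/F1 background, and received the same vehicle. The UNC0642 group carried the same transgene and received UNC0642, an inhibitor of the H3K9 methyltransferases EHMT1 and EHMT2, at 1 mg/kg intraperitoneally once daily for 3 days. The prion promoter drives the transgene mainly in neurons, and its expression in microglia was not measured in these animals.

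Microglia depend on CSF1R, the receptor for the growth factors CSF1 and IL-34, and on TGF-beta signalling, and they sense neurons through receptors such as CX3CR1 and P2RY12. Around damaged tissue they can enter a disease-associated state in which homeostatic genes fall and genes for phagocytosis, lysosomal digestion and lipid handling rise, in part through the lipid-sensing receptor TREM2 and its adaptor TYROBP. The transcription factor PU.1, encoded by Spi1, is needed for the development of microglia and binds purine-rich sites in the promoters of many myeloid genes.

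The core of the PU.1 site, GAGGAA on either strand, was searched for in the 250 bases before each RefSeq transcript start (build GRCm38.p6). It was present upstream of 15 of the 29 members for which a promoter was given, or 51.7%, and upstream of 25.9% of all 27025 genes searched. Among the members whose expression passed a test between groups, described below, 3 of 10 held it, or 30%. A match is a description of letters and was not tested as a binding site. The promoters of Fcrls (chr3:87263525-87263774, minus strand), Ctss (chr3:95526536-95526785, plus strand) and Cd68 (chr11:69666171-69666420, minus strand) are printed because these were the 3 with the motif, shown in capitals, which ended 138, 158 and 219 bases before the start. The promoters of Ly86 (chr13:37345095-37345344, plus strand) and Gpnmb (chr6:49036268-49036517, plus strand) are printed beside them because the results turn on these 2 genes, and neither window held the motif.
Fcrls: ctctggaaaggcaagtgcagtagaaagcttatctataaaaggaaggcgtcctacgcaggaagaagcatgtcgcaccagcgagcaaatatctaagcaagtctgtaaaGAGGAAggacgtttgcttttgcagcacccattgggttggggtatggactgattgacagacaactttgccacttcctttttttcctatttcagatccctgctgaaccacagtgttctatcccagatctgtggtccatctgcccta
Ctss: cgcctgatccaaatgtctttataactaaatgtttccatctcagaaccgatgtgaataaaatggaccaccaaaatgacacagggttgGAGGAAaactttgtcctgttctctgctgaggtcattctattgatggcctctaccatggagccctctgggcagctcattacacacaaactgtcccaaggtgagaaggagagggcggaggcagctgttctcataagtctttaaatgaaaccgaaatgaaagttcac
Cd68: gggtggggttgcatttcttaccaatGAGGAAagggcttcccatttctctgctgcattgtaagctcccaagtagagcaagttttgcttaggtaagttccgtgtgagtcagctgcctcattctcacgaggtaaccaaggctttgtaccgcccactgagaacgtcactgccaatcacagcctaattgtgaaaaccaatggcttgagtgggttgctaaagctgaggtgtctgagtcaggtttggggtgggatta
Ly86: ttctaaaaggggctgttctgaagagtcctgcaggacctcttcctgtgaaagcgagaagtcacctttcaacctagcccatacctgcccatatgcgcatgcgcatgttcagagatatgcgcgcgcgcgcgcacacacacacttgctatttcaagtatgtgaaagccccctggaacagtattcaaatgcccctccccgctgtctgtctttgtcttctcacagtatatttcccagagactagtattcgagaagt
Gpnmb: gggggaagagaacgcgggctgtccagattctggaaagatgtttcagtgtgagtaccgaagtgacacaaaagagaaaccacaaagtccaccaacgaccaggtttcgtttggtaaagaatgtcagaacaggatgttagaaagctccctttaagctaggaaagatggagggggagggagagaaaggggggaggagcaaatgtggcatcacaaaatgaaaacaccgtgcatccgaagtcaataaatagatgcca

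The 6 libraries held between 17005664 and 28972176 counts. Neuronal and astrocyte markers were high in every library. Counts were scaled by library size (CPM, the usual unit of normalised counts). The 10 neuronal markers summed to 7635 to 8321 CPM and the 10 astrocyte markers to 4958 to 5622 CPM. These markers are not specific to the PFC, so they do not test which brain region was taken. One library went against its label. Prnp, the gene whose promoter drives the transgene, was at 1652 CPM in the library labelled WT replicate 1, against 873 CPM in WT replicate 2 and 1470.0 to 1694 CPM in the 4 transgenic libraries. Mapt, the mouse tau gene, was at 576 CPM in the library labelled WT replicate 1, at 449 CPM in WT replicate 2 and at 570.5 to 614 CPM in the transgenic libraries. Calls on the members that use WT are therefore given with and without that library. The groups also differed in sex-linked transcripts. Xist, expressed from the inactive X chromosome of females, was at 191 to 317 CPM in WT replicate 2 and both Tau libraries and at 0.12 to 0.20 CPM in the library labelled WT replicate 1 and both UNC0642 libraries. Ddx3y, a Y-linked gene, showed the opposite pattern, with 95.05 to 101 CPM in the latter 3 libraries and 0.11 to 0.64 CPM in the former 3. Drug treatment and this sex-linked difference therefore cannot be told apart in the comparison of UNC0642 with Tau. WT replicate 2 and both Tau libraries were alike in being high in Xist. Without the library labelled WT replicate 1, UNC0642 against WT therefore carries the same sex-linked difference. With both WT libraries, Tau against WT is itself unbalanced in these transcripts. Leaving out the library labelled WT replicate 1 removes that imbalance and the high Prnp value together. Ehmt2, which encodes a target of the drug, lay between 131 and 161 CPM in all 6 libraries.

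The tissue contained RNA of microglia in every library. The homeostatic genes were all above 1 CPM in all 6 libraries, and none was at 0. On the CPM scale per kilobase of exon, which allows levels to be compared between genes, the highest members were the lysosomal proteases Ctsb, Ctsd and Ctss, with mean levels of 78.6, 72.1 and 53.7 CPM per kilobase. Ctsz, which encodes a further lysosomal protease, followed at 21.3. The purinergic receptor P2ry12 (16.8), the TREM2 adaptor Tyrobp (16.7) and Csf1r (14.1) came next and were close to each other, and Cx3cr1 (9.44) and Tmem119 (9.36), a membrane protein specific to microglia in the brain, lay just below. The lowest of all were Itgax (0.12), Clec7a (0.14) and Ccl4 (0.15), 3 genes associated with activated microglia. Some proteases and receptors on the list are also made by other brain cells, so a level in bulk tissue is not a level in microglia.

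**Figure D1:**
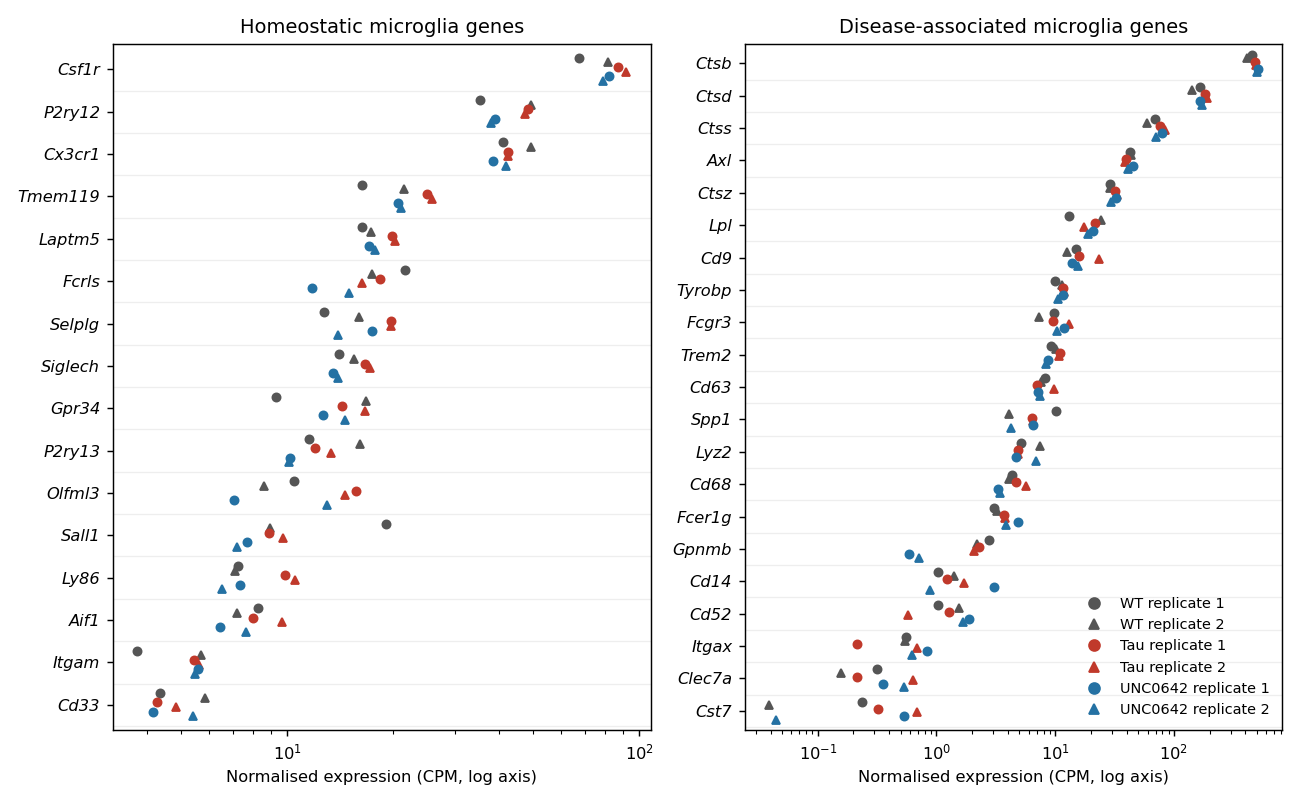
Normalised expression of the 37 members that passed the filter on low counts, as CPM on a log axis, with 1 point per library (circles for replicate 1, triangles for replicate 2; grey for WT, red for Tau, blue for UNC0642). The proteases Ctsb, Ctsd and Ctss and the receptor Csf1r sit at the right, and Itgax, Clec7a and Cst7 lie below 1 CPM in every library.

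Cst7, Clec7a and Itgax, 3 of the genes that define the disease-associated state, were close to the limit of detection in all 3 groups. Of the 23 disease-associated genes, 5 to 7 were under 1 CPM in a library. Others, such as Trem2, Axl and Ctsd, were well above that level. Cst7, a cysteine protease inhibitor that is among the strongest markers of that state, had 6 and 1 counts in the WT libraries, 9 and 12 in the Tau libraries and 9 and 1 in the UNC0642 libraries. Clec7a, the receptor dectin-1, had 8 and 4 counts in WT, 6 and 11 in Tau and 6 and 12 in UNC0642. Itgax, which encodes the integrin CD11c, had 14 and 14 counts in WT, 6 and 12 in Tau and 14 and 14 in UNC0642. For Clec7a the Tau libraries lay on either side of one WT library, and the UNC0642 libraries, at 0.36 and 0.53 CPM, were above those of WT, at 0.32 and 0.16 CPM. Counts were few, and no difference in these 3 genes passed edgeR's test between any of the groups. The smallest difference that could be detected at this depth was not computed. Ccl3 had 0 to 8 counts per library, and Ccl4 had 10 counts in UNC0642 replicate 1 and 0 in each of the other libraries, where a count of 0 allows up to 3 counts. These limits cover counting error only.

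The first comparison asked how microglia genes differ between P301S Tau and WT PFC, both given vehicle. Of the 37 members tested, 7 rose in Tau (Tmem119, Olfml3, Selplg, Ly86, Cd9, Ctsd and Ctss) and 0 fell, in edgeR's quasi-likelihood test, at an unadjusted p under 0.05 with a change of at least 1.2-fold. Over all 20409 genes tested, 3.72% were called higher and 6.1% lower by the same rule. Because the members were chosen with earlier results of these data known, such shares are a description here and in the later comparisons. The genes that rose included 4 of 16 homeostatic genes and 3 of 21 disease-associated genes. After Benjamini-Hochberg adjustment, 0 members had an adjusted p under 0.05 in edgeR, where 0.157% of all genes had one, and 9 had an unadjusted p under 0.05, where 12.4% of all genes had one. DESeq2's Wald test called 1 member lower. Without the library labelled WT replicate 1, 6 members rose (Olfml3, Ly86, Cd9, Ctsd, Ctss and Fcgr3), where 4.38% of all genes were called higher, and 1 fell (Lyz2), where 4.64% were called lower. Of the 7 members, 5 were thus called with and without that library. Without Tau replicate 2, 3 members rose (Tmem119, Olfml3 and Selplg) and 0 fell, where 3.02% of all genes were called higher and 5.51% lower. Without WT replicate 2, 7 rose (Tmem119, P2ry12, Csf1r, Gpr34, Selplg, Ly86 and Lpl) and 2 fell (Sall1 and Spp1), where 5.03% were called higher and 5.25% lower.

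Among the homeostatic genes, Ly86 encodes MD-1, a secreted partner of the receptor RP105. Its level was 7.21 and 7.11 CPM in the WT libraries, 9.83 and 10.5 in the Tau libraries and 7.34 and 6.53 in the UNC0642 libraries. Both Tau libraries were above all 4 others, which overlapped. Ly86 rose by 0.51 ± 0.16 (SE) on the log2 scale in Tau against WT (adjusted p = 0.301, edgeR), and the difference was 0.51 ± 0.21 without the library labelled WT replicate 1. It was 0.46 without Tau replicate 2, which ended the call.

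Olfml3 encodes a secreted olfactomedin-like protein that is enriched in microglia and is a target of TGF-beta signalling. It was at 10.5 and 8.59 CPM in WT, at 15.7 and 14.5 CPM in Tau and at 7.05 and 12.97 CPM in UNC0642. The Tau libraries lay above all the others, and the UNC0642 libraries spanned the WT values. The rise in Tau was 0.67 ± 0.24 on the log2 scale (adjusted p = 0.325, edgeR) and 0.81 ± 0.29 without the library labelled WT replicate 1. It was 0.54 without WT replicate 2 and 0.61 without Tau replicate 1, and each ended the call.

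Tmem119 and Selplg, the gene for the selectin ligand PSGL-1, were called with both WT libraries but not without the library labelled WT replicate 1. Tmem119 was at 16.2 and 21.5 CPM in WT, 24.9 and 25.7 in Tau and 20.6 and 21.0 in UNC0642, with a log2 fold change of 0.42 ± 0.14 in Tau (adjusted p = 0.302, edgeR). Selplg was at 12.7 and 15.9 CPM in WT, 19.7 and 19.7 in Tau and 17.4 and 13.9 in UNC0642, with a log2 fold change of 0.46 ± 0.15 (adjusted p = 0.307, edgeR). In both genes the lower WT library was the one labelled WT replicate 1, and without it the differences were 0.23 ± 0.13 and 0.30 ± 0.17. Tmem119, Selplg, Olfml3, Ly86 and Cd9 all stand on the study's own list of genes that UNC0642 reversed, which was chosen on these libraries and is not independent evidence of their direction.

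The growth factor receptor Csf1r was at 67.5 and 81.3 CPM in WT, 86.9 and 91.7 in Tau and 82.2 and 79.05 in UNC0642. Its log2 fold change in Tau was 0.26 ± 0.10 (unadjusted p = 0.0244, adjusted p = 0.347, edgeR), just under the fold limit, and it was 0.13 ± 0.10 without the library labelled WT replicate 1. Reads of Csf1r can be confused with those of Hmgxb3 on the opposite strand, which covers 15.1% of its exon bases, if strand was not used in counting. Laptm5, a lysosomal membrane protein of immune cells, was at 16.2 and 17.3 CPM in WT, 19.8 and 20.3 in Tau and 17.1 and 17.7 in UNC0642. It was likewise under the fold limit with an unadjusted p under 0.05 in edgeR (log2 fold change 0.21 ± 0.14 without the library labelled WT replicate 1).

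The other homeostatic anchors did not pass the test. P2ry12 was at 35.3 and 49.3 CPM in WT and 48.3 and 47.3 in Tau (log2 fold change 0.18 ± 0.14, adjusted p = 0.637, edgeR). Cx3cr1, the fractalkine receptor, was at 40.9 and 49.3 CPM in WT and 42.3 and 42.3 in Tau (-0.09 ± 0.11, adjusted p = 0.761), and Aif1, which encodes IBA1, was at 8.24 and 7.19 CPM in WT and 7.97 and 9.68 in Tau (0.19 ± 0.18, adjusted p = 0.709). For all 3 genes the Tau libraries lay within or across the WT values, and without the library labelled WT replicate 1 the log2 fold changes were -0.047 ± 0.11, -0.23 ± 0.11 and 0.29 ± 0.23. Sall1, a transcription factor that maintains microglia identity, was at 19.1 CPM in the library labelled WT replicate 1 and at 7.19 to 9.73 CPM in the other 5 libraries. Its log2 fold change of -0.59 ± 0.29 (adjusted p = 0.429, edgeR) became 0.056 ± 0.20 without that library.

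Of the disease-associated genes that rose in Tau, Ctsd and Ctss encode cathepsins D and S, proteases of the endosome and lysosome. Ctsd was at 165 and 142 CPM in WT, 182 and 189.6 in Tau and 166 and 172 in UNC0642. Ctss, the more selective for microglia and other myeloid cells, was at 69.3 and 59.8 CPM in WT, 76.55 and 83.3 in Tau and 78.7 and 70.1 in UNC0642. In both genes the Tau libraries were above both WT libraries. The log2 fold changes were 0.27 ± 0.09 for Ctsd (adjusted p = 0.299, edgeR) and 0.31 ± 0.10 for Ctss (adjusted p = 0.306), and 0.38 ± 0.09 and 0.41 ± 0.11 without the library labelled WT replicate 1. Without WT replicate 2 they were 0.17 and 0.21, and without Tau replicate 2 they were 0.24 and 0.25, and neither gene was called. The model Gm49369 shares 34.4% of the exon bases of Ctsd on the same strand, so the authors' counting could split their reads.

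Cd9, a tetraspanin of disease-associated microglia that oligodendrocytes also make, was at 14.9 and 12.5 CPM in WT, 15.9 and 23.4 in Tau and 13.7 and 15.5 in UNC0642. Tau replicate 2 stood above the other 5 libraries. The log2 fold change in Tau was 0.51 ± 0.18 (adjusted p = 0.325, edgeR), and it was 0.64 ± 0.22 without the library labelled WT replicate 1. It was 0.22 without Tau replicate 2 and 0.39 without WT replicate 2, and each ended the call. The 12 oligodendrocyte markers summed to 3175 and 1580 CPM in WT, 2199 and 5943 in Tau and 2305 and 2455 in UNC0642, so Tau replicate 2 was also the highest library for these markers. Of those 12 markers, 5 were called higher in Tau, 11 were without the library labelled WT replicate 1, and 0 were without Tau replicate 2. The part of this difference in the result for Cd9 was not tested.

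The remaining anchors of the disease-associated state did not pass the test between Tau and WT. Trem2 was at 9.19 and 10.1 CPM in WT and 10.9 and 10.8 in Tau (log2 fold change 0.17 ± 0.15, adjusted p = 0.679, edgeR), and Tyrobp was at 9.93 and 11.4 in WT and 11.6 and 11.9 in Tau (0.14 ± 0.15, adjusted p = 0.743). The Tau libraries were above both WT libraries for each gene and the differences did not pass the test, nor did they without the library labelled WT replicate 1 (0.099 ± 0.18 and 0.033 ± 0.17). Axl, a receptor for dying cells, was at 42.7 and 43.2 CPM in WT and 39.7 and 38.7 in Tau (-0.13 ± 0.10, adjusted p = 0.602). Lpl, the lipoprotein lipase, was at 13.1 and 24.1 CPM in WT and 21.7 and 17.5 in Tau (0.08 ± 0.24, adjusted p = 0.923), and Spp1, the secreted phosphoprotein osteopontin, was at 10.1 and 4.10 CPM in WT and 6.33 and 6.47 in Tau (-0.15 ± 0.36, adjusted p = 0.898). The 2 WT libraries lay on either side of the Tau libraries for Lpl and Spp1. Without the library labelled WT replicate 1 the log2 fold changes were -0.14 ± 0.11 for Axl, -0.30 ± 0.16 for Lpl and 0.64 ± 0.30 for Spp1, so that the sign turned for Lpl and Spp1. Cst7 had a log2 fold change of 1.78 ± 1.05 (adjusted p = 0.515), Clec7a of 0.75 ± 0.78 (adjusted p = 0.728) and Itgax of -0.37 ± 0.65 (adjusted p = 0.85), with the few counts given above behind each. Without the library labelled WT replicate 1, Clec7a was at 1.33 ± 1.16 and Itgax at -0.36 ± 0.87, and Cst7 rests on 1 WT count.

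Compared library by library, 17 of the 37 tested members were higher in both Tau libraries than in both WT libraries, and 2 (Axl and Lyz2) were lower in both, against 21.9% and 21.4% of all genes. Set against WT replicate 2 alone, 21 members were higher in both Tau libraries and 10 were lower, against 36.9% and 35.6% of all genes, and the homeostatic genes split into 8 higher and 6 lower. The median log2 fold change was 0.21 for the homeostatic genes and 0.17 for the disease-associated genes, where the median of all genes was -0.0001. Without the library labelled WT replicate 1, these medians were 0.091 and 0.19. In bulk tissue, a change in the number of cells of a type and a change in RNA per cell cannot be told apart.

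**Figure D2:**
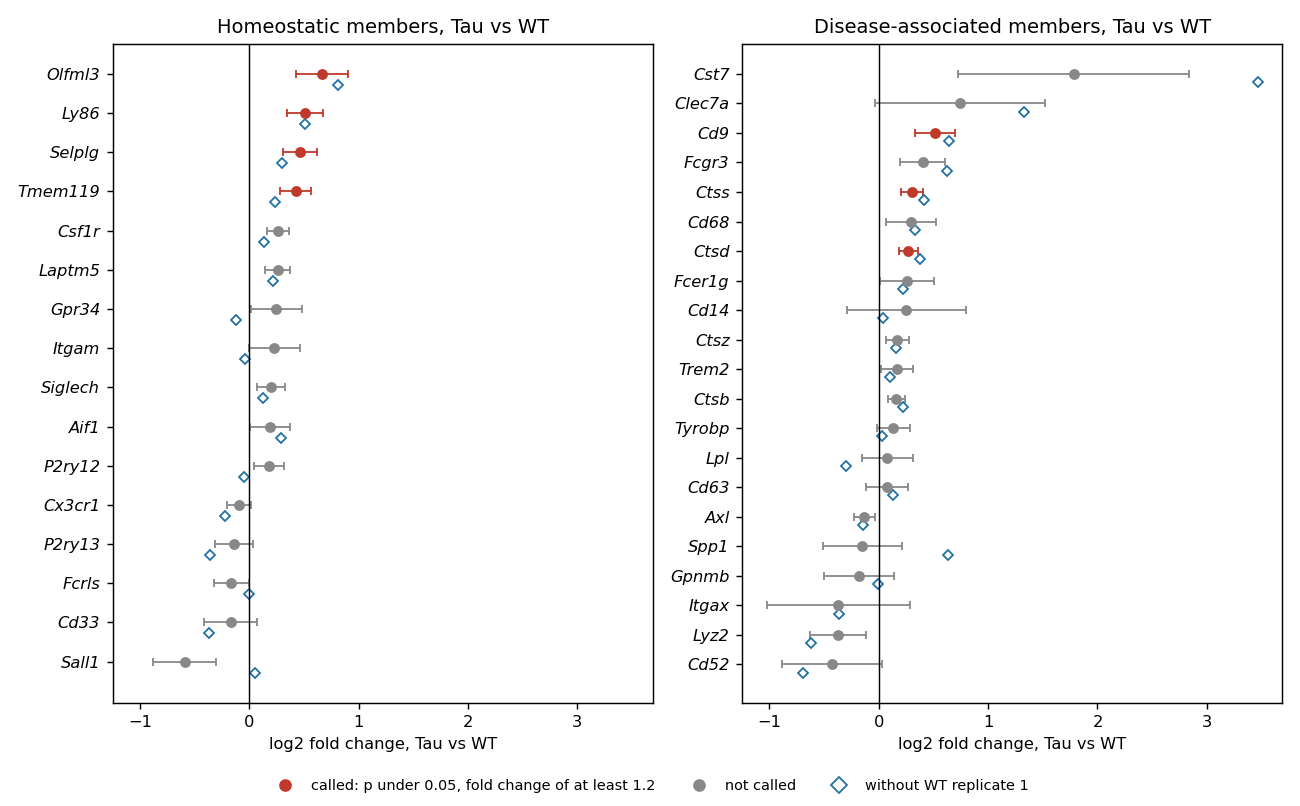
Log2 fold change of each tested member in Tau against WT, with the standard error as bars (homeostatic genes on the left, disease-associated genes on the right). Filled red points passed the call rule, and open blue diamonds give the value without the library labelled WT replicate 1, where Ly86 stayed at 0.51 and Sall1 moved from -0.59 to 0.056.

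The second comparison asked how microglia genes differed in P301S Tau mice after UNC0642. Against the vehicle-treated Tau libraries, 8 of 37 members fell (P2ry12, Siglech, Olfml3, Fcrls, Ly86, Cd9, Cd68 and Gpnmb) and 0 rose by the same rule, where 3.95% of all genes were called lower and 3.73% higher. These were 5 of 16 homeostatic genes and 3 of 21 disease-associated genes. In edgeR 0 members had an adjusted p under 0.05, where 0.0196% of all genes had one, and 8 had an unadjusted p under 0.05, where 8.86% of all genes had one. DESeq2's Wald test called 4 members lower, and the share of all genes that it called is not given here. With any 1 of the 4 libraries left out, edgeR called fewer members lower than with all of them. The libraries of the UNC0642 and Tau groups also differed in Xist and Ddx3y as given above.

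Gpnmb, a transmembrane glycoprotein of lysosome-rich phagocytes, had the lowest fold change of the members. It was at 2.76 and 2.19 CPM in WT, 2.29 and 2.06 in Tau and 0.59 and 0.71 in UNC0642, or 70 and 56, 64 and 36, and 10 and 16 counts. Both UNC0642 libraries were below all 4 others, and WT and Tau overlapped. The level in UNC0642 was 0.30-fold that in Tau (log2 fold change -1.73 ± 0.37, adjusted p = 0.279, edgeR). Leaving out any 1 of these 4 libraries gave values from -1.87 to -1.62, and Gpnmb was called in all 4 of those fits. Against WT it was 0.27-fold (log2 fold change -1.91 ± 0.36, adjusted p = 0.0777), and -1.74 ± 0.44 on the log2 scale without the library labelled WT replicate 1. Between Tau and WT its log2 fold change was -0.18 ± 0.32 (adjusted p = 0.85), and -0.0070 ± 0.41 without the same library.

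Cd68, a lysosomal membrane protein widely used to stain phagocytic microglia, was at 4.30 and 4.06 CPM in WT, 4.65 and 5.67 in Tau and 3.32 and 3.40 in UNC0642. The UNC0642 libraries were the lowest of the 6, and the Tau libraries were the highest. The log2 fold change was -0.61 ± 0.23 in UNC0642 against Tau (adjusted p = 0.503, edgeR) and 0.30 ± 0.23 in Tau against WT (adjusted p = 0.626, and 0.33 ± 0.28 without the library labelled WT replicate 1). With a library left out, Cd68 passed the rule in 1 of 4 fits, that without Tau replicate 1 (-0.75), and its value was -0.47 without Tau replicate 2, -0.60 without UNC0642 replicate 1 and -0.63 without UNC0642 replicate 2.

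Ly86 fell by 0.56 on the log2 scale after UNC0642 (SE 0.17, adjusted p = 0.421, edgeR), and it passed the rule in 3 of the 4 fits with a library left out, the exception being that without UNC0642 replicate 2 (-0.47). Olfml3 fell by 0.58 (SE 0.24, adjusted p = 0.532), with a call only in the fit without UNC0642 replicate 2 (-1.10). The value was -0.22 without UNC0642 replicate 1, -0.53 without Tau replicate 1 and -0.64 without Tau replicate 2. UNC0642 replicate 1 was lower than all the other libraries for this gene, while UNC0642 replicate 2 lay between the WT and Tau values. Cd9 fell by 0.42 (SE 0.19, adjusted p = 0.558), and the difference was -0.13 without Tau replicate 2, -0.34 without UNC0642 replicate 1 and -0.51 without UNC0642 replicate 2, each of which ended the call. Of the 12 oligodendrocyte markers, 3 were called lower in UNC0642 than in Tau, and 0 were without Tau replicate 2.

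In addition, 3 further homeostatic genes fell. P2ry12, which guides microglial processes towards sites of released ATP and ADP, was at 48.3 and 47.3 CPM in Tau and 39.02 and 37.9 in UNC0642 (log2 fold change -0.32 ± 0.14, adjusted p = 0.56, edgeR). Siglech, a sialic acid-binding receptor specific to microglia in the brain, was at 14.0 and 15.4 CPM in WT, 16.6 and 17.2 in Tau and 13.5 and 13.9 in UNC0642 (-0.30 ± 0.13, adjusted p = 0.544). In each gene both UNC0642 libraries were below both Tau libraries. Fcrls, an Fc receptor-like scavenger receptor, was at 21.6 and 17.3 CPM in WT, 18.4 and 16.3 in Tau and 11.8 and 14.9 in UNC0642, and its log2 fold change was -0.37 ± 0.16 (adjusted p = 0.549). P2ry12 and Siglech passed the rule in 0 of the 4 fits with a library left out, where their values ran from -0.34 to -0.29 and from -0.32 to -0.28. Fcrls was not called without Tau replicate 1 (-0.28) or without UNC0642 replicate 1 (-0.22).

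Several other homeostatic genes lay in the same direction without passing the rule. Tmem119 had a log2 fold change of -0.28 ± 0.14 (adjusted p = 0.596, edgeR), Csf1r of -0.15 ± 0.10 (adjusted p = 0.705), Aif1 of -0.31 ± 0.19 (adjusted p = 0.66), Sall1 of -0.32 ± 0.30 (adjusted p = 0.802) and Cx3cr1 of -0.07 ± 0.11 (adjusted p = 0.898). In all, 13 of the 16 homeostatic genes were lower in both UNC0642 libraries than in both Tau libraries, and 0 were higher, against 20.9% and 20.4% of all genes. Their median log2 fold change was -0.31, and 15 of 16 values were negative. The summed level of the 16 genes was 355 and 365 CPM in Tau and 301 and 310.2 CPM in UNC0642, beside 298 CPM in the library labelled WT replicate 1 and 344 CPM in WT replicate 2. Both UNC0642 sums were thus above the former WT library and below the latter.

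The disease-associated genes were more mixed. Of the 21 tested, 5 (Trem2, Cd9, Ctsd, Cd68 and Gpnmb) were lower in both UNC0642 libraries than in both Tau libraries and 4 (Axl, Ctsb, Cd52 and Fcer1g) were higher. Over all genes the shares were 20.9% lower and 20.4% higher, so both counts were close to those of genes in general. The median log2 fold change of the 21 genes was -0.077. Trem2 was at 8.76 and 8.38 CPM in UNC0642, below both Tau and both WT libraries (log2 fold change from Tau -0.34 ± 0.15, adjusted p = 0.566, edgeR). Its adaptor Tyrobp was at 11.6 and 10.5 CPM, within the range of the other groups (-0.09 ± 0.15, adjusted p = 0.905). Axl (0.13 ± 0.10, adjusted p = 0.74), Lpl (0.01 ± 0.24, adjusted p = 0.993), Spp1 (-0.27 ± 0.37, adjusted p = 0.877), Cst7 (-0.85 ± 1.01, adjusted p = 0.857), Clec7a (0.17 ± 0.74, adjusted p = 0.97) and Itgax (0.75 ± 0.66, adjusted p = 0.78) did not pass. The summed level of the 23 genes, most of it from Ctsb and Ctsd, was 915 and 948 CPM in Tau and 934 and 907 CPM in UNC0642, and these libraries overlapped.

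**Figure D3:**
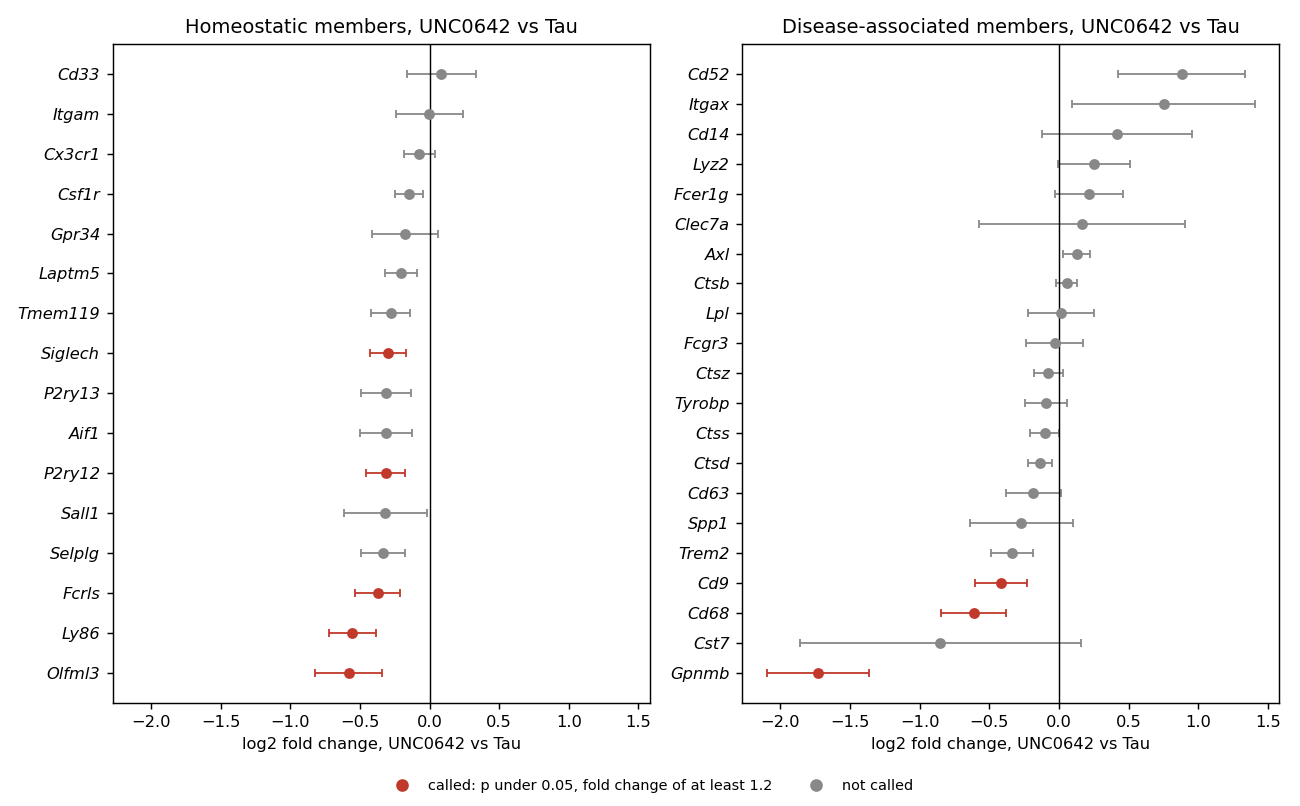
Log2 fold change of each tested member in UNC0642 against Tau, with the standard error as bars (homeostatic genes on the left, disease-associated genes on the right) and red points for members that passed the call rule. All but Cd33 of the homeostatic genes lie at or below 0, and Gpnmb is the lowest member at -1.73.

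The direction of some of these values changed when a term for Y-linked expression was added to the fit. Only the WT group held both a library high in Ddx3y and one low in it. Those 2 libraries also differed in Prnp, so the term cannot separate the sex-linked difference from the difference in Prnp. With the summed Y-linked expression of each library as a term, a fit that rests on the difference between the 2 WT libraries, 5 members fell after UNC0642 (Sall1, Fcrls, Ctsd, Spp1 and Gpnmb) and 2 rose (Gpr34 and Lpl), where 3.71% of all genes were called lower and 3.93% higher. The median of the homeostatic genes became 0.036, and P2ry12 turned to 0.13. Fcrls and Gpnmb passed the rule in both fits.

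Olfml3, Ly86 and Cd9 were called higher in Tau and lower after UNC0642, and 0 members were called in the reverse order, where 0.857% and 1.77% of all genes were. Both comparisons share the Tau libraries, so a high Tau value enters each. UNC0642 against WT gave log2 fold changes of 0.09 ± 0.24 for Olfml3 (adjusted p = 0.916, edgeR), -0.05 ± 0.17 for Ly86 (adjusted p = 0.934) and 0.10 ± 0.19 for Cd9 (adjusted p = 0.876). The values were 0.24 ± 0.29, -0.041 ± 0.21 and 0.23 ± 0.22 without the library labelled WT replicate 1. That fit has 1 WT library, high in Xist, against UNC0642 libraries high in Ddx3y.

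**Figure D4:**
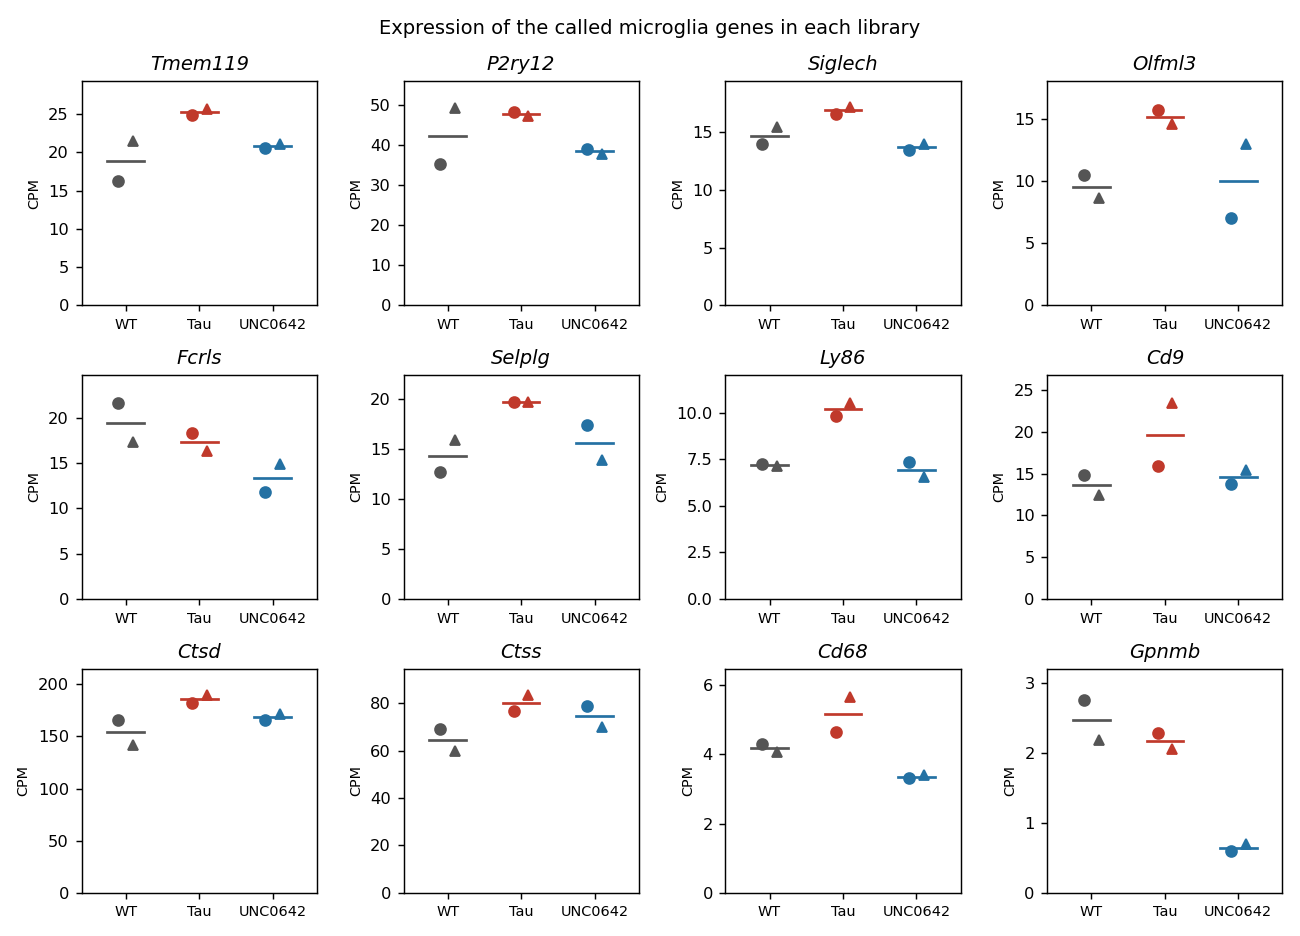
Normalised expression (CPM, linear axes from 0) of the 12 members called in Tau against WT or in UNC0642 against Tau, with 1 point per library (circles for replicate 1, triangles for replicate 2) and a line at each group mean. Gpnmb is at 0.59 and 0.71 CPM in UNC0642, below the other 4 libraries, and the 2 Tau values of Ly86 lie above the rest.

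The third comparison set UNC0642-treated Tau mice against WT mice given vehicle. Without the library labelled WT replicate 1, it sets 2 libraries high in Ddx3y against 1 high in Xist. Transgene, treatment and the sex-linked difference cannot be told apart in that fit. Here 4 members fell (P2ry13, Sall1, Fcrls and Gpnmb) and 0 rose, where 5.69% of all genes were called lower and 3.77% higher, in edgeR. No adjusted p was under 0.05 among the members (0.216% of all genes), and 5 had an unadjusted p under 0.05 (12.1% of all genes). Without the library labelled WT replicate 1, P2ry12, P2ry13, Cx3cr1 and Gpnmb fell (4.76% of all genes) and Ctsb, Ctss and Fcgr3 rose (4.27%). P2ry13, an ADP receptor next to P2ry12 on chromosome 3, was at 11.6 and 16.1 CPM in WT, 11.9 and 13.3 in Tau and 10.2 and 10.1 in UNC0642. The UNC0642 libraries were the lowest for P2ry13. Library by library, 9 members were higher in both UNC0642 libraries than in both WT libraries and 8 were lower, against 22.1% and 22.3% of all genes. Against WT replicate 2 alone, 12 were higher and 16 lower, where 36.1% and 37.3% of all genes were. For Fcrls the log2 fold change from WT was -0.54 ± 0.16 (adjusted p = 0.242), and it was -0.37 ± 0.18 without the library labelled WT replicate 1, which ended the call, as did leaving out UNC0642 replicate 1 (-0.38). For the other members called in the first 2 comparisons the values were 0.14 ± 0.14 for Tmem119 (adjusted p = 0.727), -0.14 ± 0.14 for P2ry12 (adjusted p = 0.738), -0.10 ± 0.13 for Siglech (adjusted p = 0.793), 0.13 ± 0.16 for Selplg (adjusted p = 0.789), 0.13 ± 0.09 for Ctsd (adjusted p = 0.57), 0.20 ± 0.10 for Ctss (adjusted p = 0.461) and -0.32 ± 0.23 for Cd68 (adjusted p = 0.628). Without the library labelled WT replicate 1 they were -0.047 ± 0.13 for Tmem119, -0.36 ± 0.11 for P2ry12, -0.17 ± 0.15 for Siglech, -0.032 ± 0.17 for Selplg, 0.25 ± 0.09 for Ctsd, 0.31 ± 0.11 for Ctss and -0.28 ± 0.29 for Cd68, with P2ry12 and Ctss called.

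The members not yet described varied as follows. Gpr34, a lysophospholipid receptor on the X chromosome, was at 9.26 and 16.7 CPM in WT, 14.3 and 16.7 in Tau and 12.6 and 14.6 in UNC0642. Itgam, the integrin CD11b, was at 3.75 and 5.66 CPM in WT and at 5.43 to 5.61 CPM in the other 4 libraries, and Cd33, a sialic acid-binding inhibitory receptor, was between 4.14 and 5.82 CPM. The model Gm49368 shares 68.7% of the exon bases of Itgam on the same strand, and its count is uncertain for that reason. Ctsb was at 455 and 415 CPM in WT, 483 and 489.7 in Tau and 511 and 501 in UNC0642, so that all 4 transgenic libraries were above WT. Ctsz was between 28.7 and 33.15 CPM, and the tetraspanin Cd63 was between 6.97 and 9.79 CPM. Among genes of the Fc and innate receptors, Fcgr3 was between 7.30 and 13.2 CPM, Fcer1g, the shared signalling chain of Fc receptors, was between 3.07 and 4.85 CPM, and Cd14, the lipopolysaccharide co-receptor, was at 3.08 CPM in UNC0642 replicate 1 and between 0.88 and 1.72 CPM in the others. Lyz2, a lysozyme of myeloid cells with the near-identical neighbour Lyz1, was between 4.68 and 7.499 CPM, and Cd52, a small surface glycoprotein, was between 0.57 and 1.89 CPM. With both WT libraries in the fit, 0 of these 11 genes passed the call rule in the 3 comparisons in edgeR, and Ctsb had an unadjusted p under 0.05 in UNC0642 against WT.

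Other genes of the same pathways, from lists set beside the members, moved in small numbers. Over all genes tested, 3.72% were called higher and 6.1% lower in Tau against WT. In UNC0642 against Tau the shares were 3.73% and 3.95%. Of 23 further microglia genes, 2 rose in Tau (C1qa, a subunit of complement C1q, and the integrin Itgb5) and 0 fell. Itgb5 was not called without the library labelled WT replicate 1. C1qa was at 34.1 and 30.3 CPM in WT and 43.3 and 40.2 in Tau (log2 fold change 0.38 ± 0.11, adjusted p = 0.279, edgeR, and 0.46 ± 0.13 without the library labelled WT replicate 1). After UNC0642, 1 of the 23 rose (C1qc) and 3 fell (Cd37, Abi3 and Vsir). Of 14 ligands and receptors, 2 rose in Tau, the TGF-beta receptor Tgfbr1 and the phagocytic receptor Mertk, and 1 fell (Tgfbr2). Tgfbr2 was not called without the library labelled WT replicate 1. After UNC0642, Tgfbr1 and Cd47, a signal against phagocytosis, fell. Tgfbr1 was at 38.4 and 44.4 CPM in WT, 53.1 and 64.5 in Tau and 49.7 and 40.8 in UNC0642. Mertk was at 38.4 and 45.7 CPM in WT and at 55.9 to 60.6 CPM in all 4 transgenic libraries (0.47 ± 0.11 in Tau, adjusted p = 0.187, and 0.35 ± 0.11 without the library labelled WT replicate 1).

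Of 12 genes of TREM2 and CSF1R signalling, 2 rose in Tau (Blnk and Smad3), 0 did without the library labelled WT replicate 1, and 0 were called after UNC0642. Of 18 other disease-associated genes, 16 were tested, and B2m, the light chain of MHC class I, rose in Tau. After UNC0642, H2-D1 rose and Fth1, the ferritin heavy chain, fell. Of 11 inflammatory genes, 6 were tested, and Nfkbia, the inhibitor of NF-kappaB that is itself induced by it, rose in Tau. Nfkbia was at 18.5 and 17.5 CPM in WT, 27.5 and 28.9 in Tau and 27.1 and 24.8 in UNC0642 (log2 fold change 0.65 ± 0.11, adjusted p = 0.0666, edgeR, and 0.68 ± 0.13 without the library labelled WT replicate 1), so that all 4 transgenic libraries were above both WT libraries. Of the cytokines, Tnf was at 0 counts in 5 libraries and Il6 in 5.

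Markers of other cells were summed beside these results. The 9 border macrophage markers summed to 23.9 and 36.4 CPM in WT, 35.5 and 27.3 in Tau and 27.8 and 34.8 in UNC0642, with Folr2 or Ms4a7 at 0 in 3 libraries, and 0 of the 7 tested were called between Tau and WT or between UNC0642 and Tau. The 10 monocyte and neutrophil markers summed to 0.53 to 3.003 CPM and the 9 lymphocyte markers to 0.18 to 0.66 CPM, with 1 to 7 and 2 to 8 of them at 0 in a library. Levels of infiltrating blood cell markers were thus near 0 in all groups. The 10 endothelial markers summed to 224 and 217 CPM in WT, 159 and 167 in Tau and 159 and 207 in UNC0642, and 5 of them fell in Tau. The 10 meningeal fibroblast markers summed to 64.3 and 89.3 CPM in WT, 63.1 and 44.8 in Tau and 64.4 and 60.3 in UNC0642, and 3 of them fell. The part of these and of the oligodendrocyte markers in the results for the microglia genes was not tested.

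**Figure D5:**
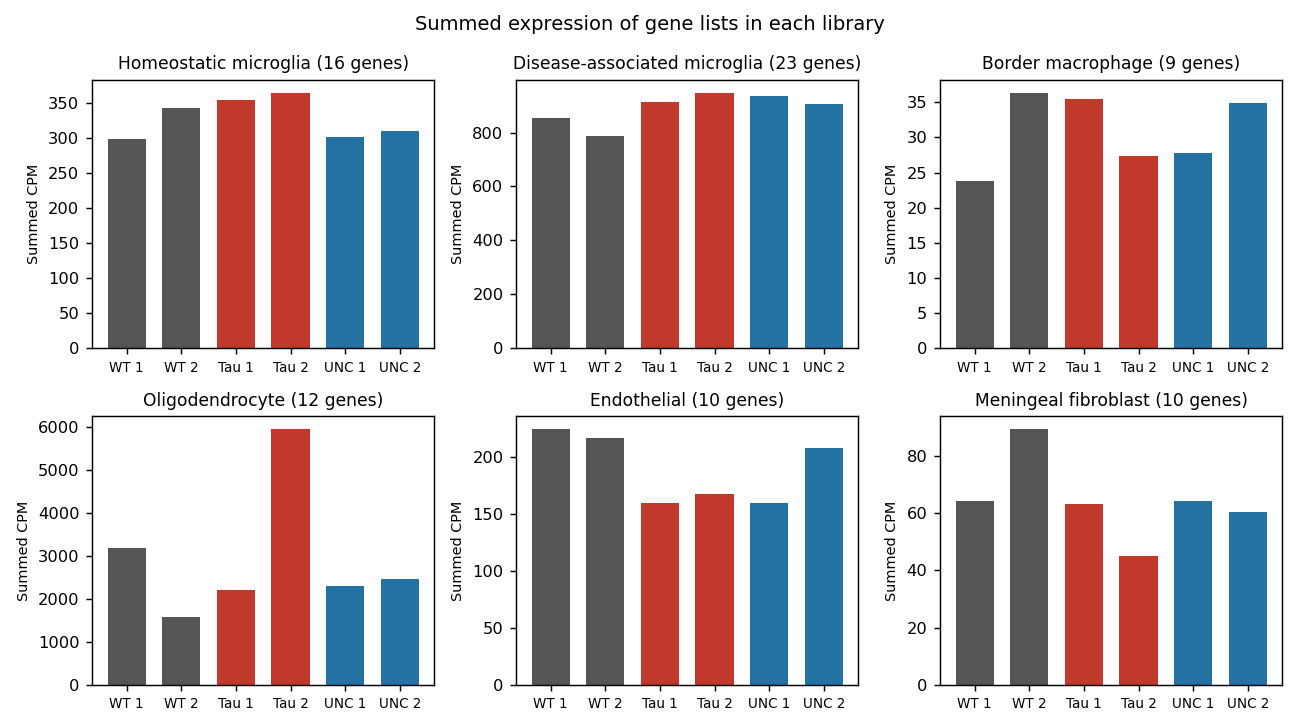
Summed expression (CPM, bars from 0, 1 bar per library, grey for WT, red for Tau, blue for UNC0642) of the homeostatic and disease-associated genes and of 4 marker lists. The homeostatic sums are 355 and 365 CPM in Tau against 301 and 310.2 in UNC0642, and Tau replicate 2 is highest for oligodendrocyte markers at 5943 CPM.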

How the data were processed

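The authors extracted PFC RNA with an RNeasy kit, made strand-specific libraries after ribosomal RNA depletion and sequenced them on an Illumina HiSeq. Adapters were removed by Cutadapt, alignment used TopHat2 and featureCounts gave the reads per gene, and the submitters' processing notes also name SAMtools, edgeR and mm10. The deposited files hold raw counts per gene, not normalized. Whether counting used strand is not given in the sources used here. Total counts per library were 24525020 and 25264641 (WT), 28972176 and 17690811 (Tau) and 17005664 and 22657673 (UNC0642).

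The counts of all 6 libraries were fitted in edgeR 4.0.16 (R 4.3.3) by group, with TMM scaling, filterByExpr and the quasi-likelihood test, which left 3 residual degrees of freedom and a biological coefficient of variation of 12.3%. A gene was called at an unadjusted p under 0.05 with a change of at least 1.2-fold, the threshold of the study. Adjusted p-values are Benjamini-Hochberg values over all 20409 genes tested. Levels are CPM of TMM-scaled library sizes, and values after ± are standard errors unless marked otherwise. On simulated data with 200 genes changed by 2-fold, 99% of them and 4.97% of unchanged genes were called. The changed genes were drawn from those with higher counts, and all genes were given the same spread. The 99% therefore does not cover smaller changes or genes with few counts. Alternatives were DESeq2 1.42.0 (size factors or its Wald test), no filter, the compared groups alone, a replicate block, a term for Y-linked expression, other call rules and leaving out each library. Members are named with levels in every library, and fold changes are given for called members and for a fixed set of anchors. Called genes are named from 5 lists of related microglia genes, and marker lists of other cells are given by counts and sums. The members and the lists were chosen with earlier results of these data known. Gene coordinates and exon lengths came from GENCODE M21, promoters from RefSeq.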

Additional observations from a re-analysis of the deposited data

How the results depend on the processing

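With 2 libraries per group, most calls on single members depended on 1 library, and the cause was not tested. Leaving out 1 library at a time gave 3 to 8 members higher and 0 to 2 lower in Tau against WT, 0 to 1 higher and 3 to 4 lower in UNC0642 against Tau, and 1 to 3 higher and 2 to 4 lower in UNC0642 against WT. The lowest count of 3 higher members in Tau came without Tau replicate 2. Homeostatic medians ranged over 0.091 to 0.35, -0.30 to -0.22 and -0.12 to 0.036 in the 3 comparisons, and the disease-associated median in UNC0642 against WT over 0.020 to 0.24. No member passed an adjusted p under 0.05 (0 in each direction of each comparison). Without the filter, 1 member was lower in Tau, 2 were higher in UNC0642 against Tau and 2 against WT. DESeq2's Wald test gave 1 lower in Tau and 4 lower in UNC0642 against Tau. With no fold-change limit, 1 was higher in UNC0642 against WT. The shares of all genes called are not given for DESeq2 or for the fit without the filter. They are also not given for most fits with a library left out. Replicate numbers gave only names: same-numbered deviations correlated at -0.0344, -0.00335 and -0.0212. A replicate block left 5 members lower in UNC0642 against Tau and moved no other count of calls by over 1.5 times.

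With the Y-linked term, 2 members were higher and 5 lower in UNC0642 against Tau, and 3 were higher in UNC0642 against WT. This term rests on the 2 WT libraries, which also differed in Prnp. In Tau against WT, Tmem119 and Selplg were not called with this term, and Fcgr3 was called higher. The homeostatic medians were 0.065 in Tau against WT, 0.036 in UNC0642 against Tau and 0.036 in UNC0642 against WT, and the disease-associated median in UNC0642 against Tau was -0.21. Directions reversed under this term in Tau against WT for P2ry12 (-0.014), Itgam (-0.0052), Gpr34 (-0.083), Lpl (-0.22) and Spp1 (0.56). In UNC0642 against Tau they reversed for Tmem119 (0.10), P2ry12 (0.13), P2ry13 (0.16), Cx3cr1 (0.18), Csf1r (0.11), Itgam (0.56, and 0.0053 with DESeq2 size factors), Gpr34 (0.65), Tyrobp (0.10), Clec7a (-0.54) and Ctsb (-0.067). In UNC0642 against WT they reversed for P2ry12 (0.12) and Olfml3 (-0.049).

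Signs also turned when 1 library was left out. In Tau against WT the ranges were -0.047 to 0.44 for P2ry12, -0.36 to 0.12 for P2ry13, -0.23 to 0.048 for Cx3cr1, -0.041 to 0.56 for Itgam, -1.04 to 0.056 for Sall1, -0.12 to 0.74 for Gpr34, -0.31 to 0.0012 for Fcrls, -0.37 to 0.060 for Cd33, -0.13 to 1.40 for Clec7a, -1.33 to 0.32 for Itgax, -0.30 to 0.59 for Lpl, -0.17 to 0.31 for Cd63 and -0.66 to 0.64 for Spp1. In UNC0642 against Tau they were -0.025 to 0.018 for Itgam, -0.12 to 0.25 for Cd33, -3.33 to 0.12 for Cst7, -0.49 to 1.04 for Clec7a, -0.14 to 0.18 for Lpl, -0.42 to 0.067 for Cd63, -0.062 to 0.49 for Lyz2, -0.60 to 0.013 for Spp1, -0.71 to 1.09 for Cd14 and -0.25 to 0.21 for Fcgr3. In UNC0642 against WT they were -0.047 to 0.36 for Tmem119, -0.36 to 0.12 for P2ry12, -0.44 to 0.45 for Olfml3, -0.037 to 0.30 for Selplg, -0.13 to 0.034 for Ly86 and -0.025 to 0.23 for Cd9.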
